A study of Mus musculus with 15 samples.

Results

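The genes described here are the interleukins and interleukin receptors, taken as every gene whose symbol begins with Il followed by a digit. The expression table held 82 such genes among 18929, and 60 of them had enough reads to be tested, among 15369 tested genes. They were measured by bulk mRNA sequencing of skin from male balb/c mice, wild type and 4 to 6 weeks old when wounded, in 15 samples that form 5 groups of 3. In the 4 wound groups a full-thickness excisional wound of 10 mm or 15 mm on the back was filled with Matrigel beads. The acellular groups received beads with no cells, and the HDB groups received high-density beads carrying human umbilical cord mesenchymal stem cells, spaced out among acellular beads. The fifth group, normal, was unwounded skin from the same strain. By the methods, beads were in place for 4 weeks in the sequenced skin, although wounds were followed to day 21. The labels do not say whether the samples of a group came from separate animals, so the p-values measure the spread between these samples, which may be technical in part. Total counts ran from 15840542 to 18404177 per sample.

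Interleukins are secreted proteins through which leukocytes, keratinocytes and fibroblasts signal to each other. Members of the IL-1 and IL-17 families act through receptors whose adaptors lead to NF-kB, whereas most others bind chains without enzyme activity of their own that recruit JAK kinases and STAT factors. Several chains are shared, gp130 (Il6st) by the IL-6 and IL-11 receptors, the common gamma chain (Il2rg) by those for IL-2, IL-7, IL-15 and IL-21, and Il12rb1 by those for IL-12 and IL-23. In wounded skin the family is known for the early calling of neutrophils and macrophages and for the later balance between repair and fibrosis.

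Before any comparison, 3 wound samples stood apart. Acellular 15 mm replicate 1 had the lowest level among the 12 wound samples for 39 of the 60 tested interleukin genes, and its summed level of 9 hair shaft and inner root sheath genes was 18380 CPM (read counts scaled to library size, with TMM factors), against at most 1382 CPM in the other wound samples and at most 6.39 CPM in normal skin. HDB 10 mm replicate 2 had a summed level of 235 CPM for 10 neutrophil genes, against 12.7 to 50.7 CPM in the other wound samples. HDB 10 mm replicate 3 had the highest level among the wound samples for 16 of the 60 members, and HDB 10 mm replicate 2 for 10. The part of the hair and neutrophil genes in the results was not tested. The skin label was met in all 15 samples, in which 8 keratinocyte genes summed to between 5910 and 16419 CPM.

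Many of the cytokines best known from early wounds were close to undetected. The 22 untested members included Il6, with 2 to 13 counts per sample, Il17a, with 2 counts over all 15 samples, and Il22, with 4. Il4 reached at most 3 counts in any sample, Il10 at most 7, and Il5 at most 4. Il1f6, listed under its older name and now called Il36a, an epidermal IL-1 family ligand, had 31 counts in HDB 10 mm replicate 2 and 106 in replicate 3 but at most 7 in each of the other 13 samples. With all 15 samples these genes were left out of the test for low counts. What follows concerns mostly receptors, decoys and a smaller set of ligands.

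Against normal skin, the mean of the 4 wound groups differed for 16 of the 60 tested interleukin genes (adjusted p under 0.05, edgeR quasi-likelihood test with Benjamini-Hochberg adjustment over all genes), 11 higher and 5 lower. That is 26.7% of the members against 30.9% of all tested genes, a share no higher than the background. The members higher in wounds were 18.3% against 14.2% of all genes, and those lower 8.33% against 16.7%. The median log2 difference of the members was 0.23, and that of all tested genes was 0.04. In wounds, Il12b, Il23a, Il11ra2, Il18r1, Il13ra2, Il11, Il17rb, Il12rb1, Il11ra1, Il1r1 and Il1rl2 rose, and Il12a, Il6ra, Il31ra, Il1r2 and Il6st fell. Because whole skin was sequenced, fewer cells of a type and less RNA per cell cannot be told apart in any of these values.

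How many genes were called depended on single samples. Without acellular 15 mm replicate 1 the count was 29 of 62 tested (46.8%), which included all 16, and 40.1% of all genes were called in that fit. Among the 13 added, Il18rap, Il2rb, Il7r, Il21r, Il7, Il13, Il2, Il13ra1 and Il17re were higher in wounds and Il16, Il18, Il1f10 and Il22ra2 lower. Without HDB 10 mm replicate 2 it was 12 (27.6% of all genes), with Il23a, Il12rb1, Il17rb (0.82, adjusted p = 0.0511) and Il1rl2 (0.36, adjusted p = 0.0514) no longer called. Without normal replicate 1, 2 or 3 the count was 6, 7 or 3, and the share of all genes 16.2%, 15.4% or 11.9%. Il6ra and Il11ra2 kept their call in each of the 20 alternative fits, and Il6st in 19 of 20.

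**Figure D1:**
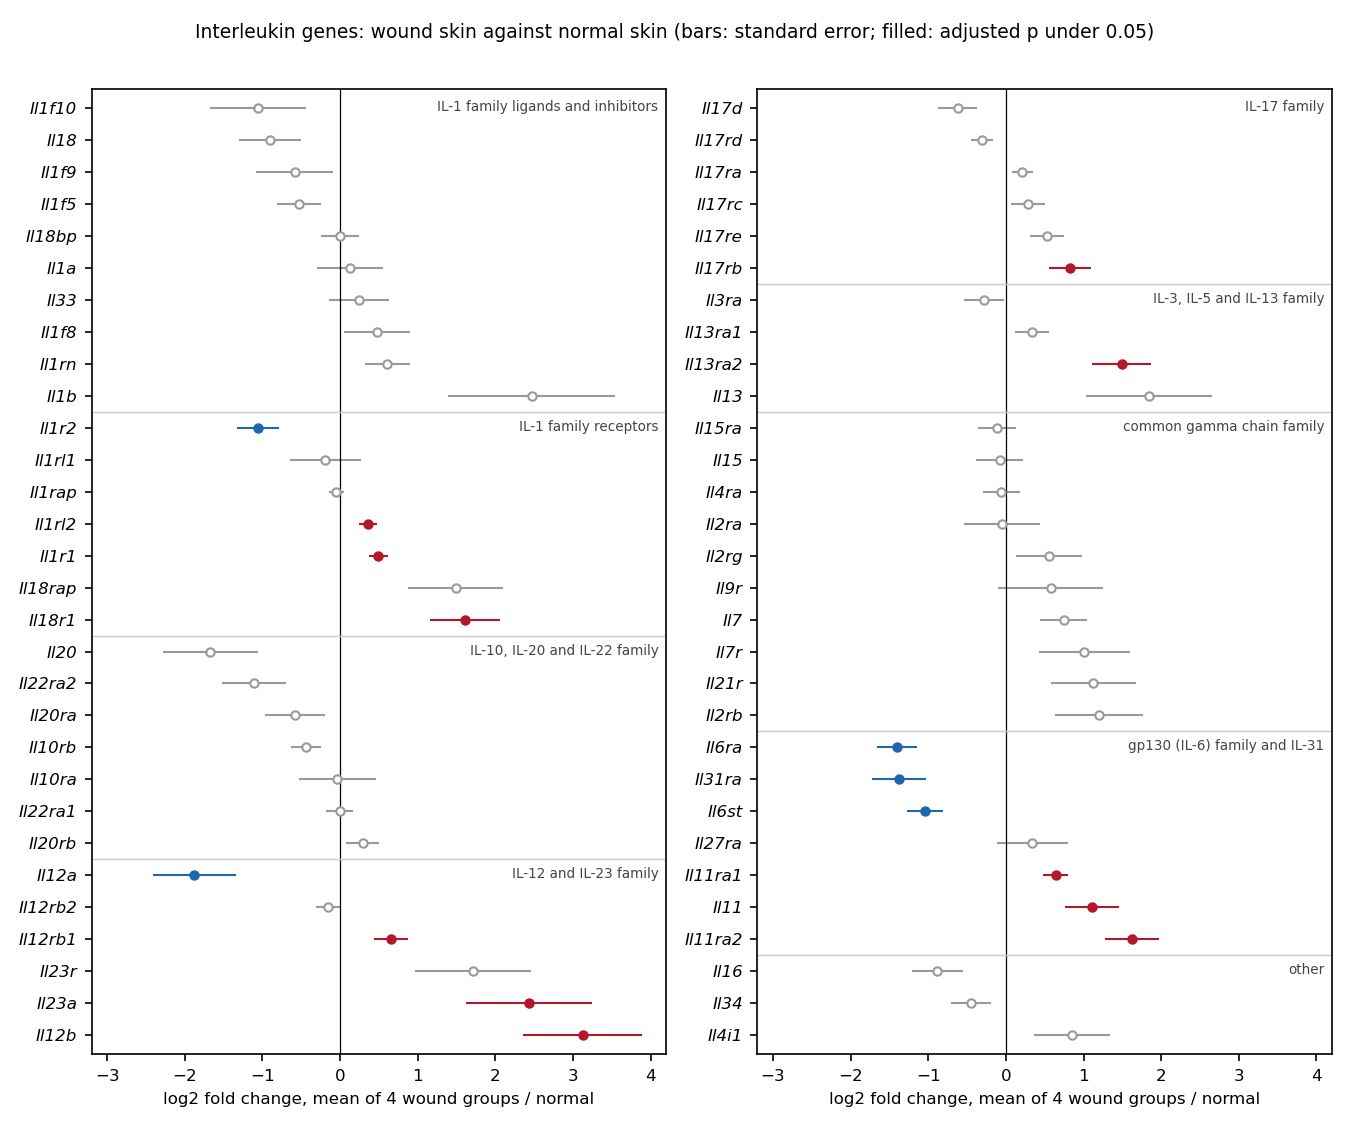
The log2 fold change of the mean of the 4 wound groups against normal skin (x axis) is plotted for the 60 tested interleukin genes (y axis), grouped by family, with the standard error as bars; filled points passed the test. Filled points lie on both sides of 0 in the IL-1 receptor, IL-12 and gp130 groups, where 3 of 4, 3 of 4 and 3 of 6 called genes were higher in wounds.

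The plot of fold changes by family shows 12 receptor chains among the 16 called genes (75%), while 38 of the 60 tested members (63.3%) were receptor chains. Of the 10 tested IL-1 family ligands and inhibitors edgeR called none, with 2 at an unadjusted p under 0.05 (43.7% of all genes were). DESeq2 called Il1b, while it called 40% of all genes. The stretch upstream of the start site was read for the members that were called. In RefSeq (GRCm38.p6), 9 of the 11 genes that rose and all 5 that fell had a promoter, of which the 250 bases upstream of the start are considered. Motifs were searched by their letters on both strands, except TATAA, which was searched on the forward strand. The AP-1 motif TGANTCA was present upstream of Il11, Il13ra2 and Il17rb among those that rose and of none that fell. It was held by 10 of the 49 tested members with a promoter (20.4%), by 7.82% of all genes with a RefSeq promoter and by 6.75% of the 32851 promoters. TATAA was present upstream of Il11, Il12b, Il13ra2, Il18r1 and Il1rl2 and of none that fell, against 11 of the 49 members (22.4%) and 18.4% of all genes. The STAT motif TTCNNNGAA was present upstream of Il18r1, Il1r2 and Il31ra, against 7 of the 49 members (14.3%) and 8.13% of all genes. The C/EBP motif TTNNGCAA was present upstream of Il1r1 and Il1rl2 and of none that fell, against 11 of the 49 members (22.4%) and 10.8% of all genes. The kappaB motif was found upstream of none of these 14 genes but of 8 of the 49 members (16.3%), against 4.71% of all genes. Called members were not tested against the other members. The motifs were chosen with these sequences in view. A match is a run of letters and not a shown binding site. The upstream sequences of 6 called genes follow, with the matches in capitals, Il11, Il13ra2 and Il17rb because they share the AP-1 letters, Il12b for the largest change in this comparison, and Il1r2 and Il31ra because they fell and share the STAT letters.
Il11: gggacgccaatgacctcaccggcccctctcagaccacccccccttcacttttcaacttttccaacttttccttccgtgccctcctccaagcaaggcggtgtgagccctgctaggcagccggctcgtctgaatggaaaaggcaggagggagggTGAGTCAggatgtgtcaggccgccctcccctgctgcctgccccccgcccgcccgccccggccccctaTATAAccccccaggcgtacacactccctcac
Il13ra2: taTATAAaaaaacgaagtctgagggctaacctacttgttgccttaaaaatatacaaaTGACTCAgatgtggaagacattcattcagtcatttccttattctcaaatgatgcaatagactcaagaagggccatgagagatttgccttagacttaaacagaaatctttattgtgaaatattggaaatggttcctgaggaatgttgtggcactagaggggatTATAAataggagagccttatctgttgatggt
Il17rb: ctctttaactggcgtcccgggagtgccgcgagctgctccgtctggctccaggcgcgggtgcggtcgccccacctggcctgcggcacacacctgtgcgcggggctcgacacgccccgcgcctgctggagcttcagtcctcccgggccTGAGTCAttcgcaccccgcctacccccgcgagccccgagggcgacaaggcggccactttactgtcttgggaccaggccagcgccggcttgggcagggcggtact
Il12b: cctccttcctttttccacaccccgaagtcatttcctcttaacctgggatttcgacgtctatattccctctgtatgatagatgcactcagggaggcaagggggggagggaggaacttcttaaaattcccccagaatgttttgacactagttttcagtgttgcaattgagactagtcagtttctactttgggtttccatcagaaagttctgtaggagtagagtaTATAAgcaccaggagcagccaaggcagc
Il1r2: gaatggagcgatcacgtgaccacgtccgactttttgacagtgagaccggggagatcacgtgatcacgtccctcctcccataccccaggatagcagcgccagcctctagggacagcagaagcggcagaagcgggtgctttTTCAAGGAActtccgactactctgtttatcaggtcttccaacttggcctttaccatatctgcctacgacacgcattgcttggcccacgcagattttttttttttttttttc
Il31ra: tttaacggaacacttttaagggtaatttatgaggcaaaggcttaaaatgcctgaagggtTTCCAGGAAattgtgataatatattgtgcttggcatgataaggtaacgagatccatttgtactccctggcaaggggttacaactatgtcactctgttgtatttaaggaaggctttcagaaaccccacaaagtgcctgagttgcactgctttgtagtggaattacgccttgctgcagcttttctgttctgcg
In this order they lie at chr7:4778142-4778391 (minus strand, the second of 2 start sites of Il11), chrX:147429193-147429442 (minus), chr14:30008897-30009146 (minus), chr11:44399813-44400062 (plus), chr1:40085843-40086092 (plus) and chr13:112580663-112580912 (minus).

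Among the gp130 cytokines and their receptors, Il6ra, Il31ra and the shared chain Il6st fell, and Il11, Il11ra1 and Il11ra2 rose. Il6ra, the chain that binds IL-6, was at 47.3, 43.0 and 39.0 CPM in normal skin. In the 12 wound samples it ran from 6.86 to 27.7 CPM with a median of 16.3, so that no wound sample reached the lowest normal one. The log2 difference was −1.41 (SE 0.26, adjusted p = 0.00365, edgeR). Il6ra was also the one member called lower than normal in each of the 4 wound groups taken alone, with log2 differences of −1.25 and −1.31 under acellular beads (10 mm, then 15 mm) and of −1.39 and −1.68 under HDB beads. These single-group calls were less stable than that over all wounds, being held in 0 and 4 of 6 fits with a sample left out under acellular beads and in 1 and 1 of 6 under HDB beads.

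Il6st, which encodes gp130, was at 241, 324 and 353 CPM in normal skin and at 100 to 234 CPM, median 133, in wounds. The 2 ranges did not meet, and the log2 difference was −1.04 (SE 0.23, adjusted p = 0.00787). Il31ra, the specific chain of the receptor for IL-31, a cytokine tied to itch, was at 30.4, 27.3 and 27.8 CPM in normal skin and at 3.29 to 20.1 CPM, median 11.5, in wounds, a log2 difference of −1.38 (SE 0.35, adjusted p = 0.0130). Its partner chain Osmr, which bears no Il symbol, differed by 0.18 (SE 0.18, adjusted p = 0.467).

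Il11, the ligand studied for its part in fibrosis, was at 0.773, 0.737 and 0.402 CPM in normal skin, that is 11, 11 and 6 counts. Every wound sample was above these, from 0.796 to 2.2 CPM with a median of 1.38, and the log2 difference was 1.11 (SE 0.35, adjusted p = 0.0298). Its receptor chain Il11ra1 was at 103, 149 and 122 CPM in normal skin and at 141 to 314 CPM, median 194, in wounds, with an overlap at the low end and a log2 difference of 0.64 (SE 0.16, adjusted p = 0.0122).

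Il11ra2, a near copy of Il11ra1, was at 5.13, 3.41 and 3.09 CPM in normal skin and at 5.67 to 20.7 CPM in wounds, and the log2 difference was 1.63 (SE 0.35, adjusted p = 0.00622). The gene cannot be separated with confidence, since 70.2% of the 31-base words of its transcripts were also in Il11ra1 and 100% in the predicted gene Gm13305, and estimated counts of both receptor genes were fractional in all 15 samples. Of the words of Il11ra1, 51.52% were in Gm13305 and 35.55% in Il11ra2. Reads of these 3 genes could have been divided among them by the counting. Il11ra2 also overlaps the gene Ccl27b over 734 bases. Il27ra, the remaining tested chain of the group, did not pass the test (0.34, SE 0.46, adjusted p = 0.594).

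**Figure D2:**
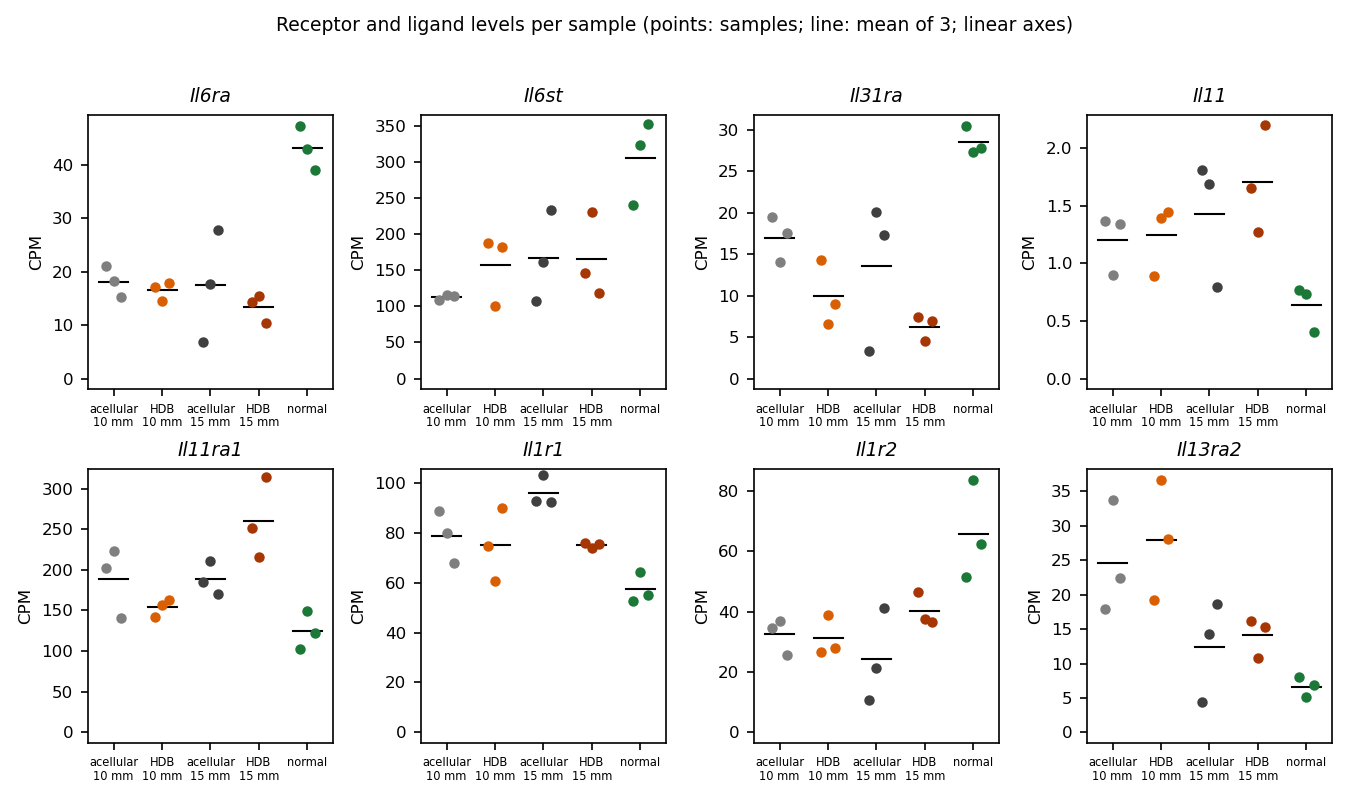
CPM (y axis, linear from 0) in each of the 15 samples is plotted by group (x axis) for 8 interleukin receptor or ligand genes; points are samples and lines are means of 3. For Il6ra, Il6st, Il31ra and Il1r2 the 3 normal samples lie above all wound samples, and for Il11 they lie below them.

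The plot of receptor levels by sample also shows the IL-1 receptors. Il1r1, the signalling receptor for IL-1, was at 52.8, 64.3 and 55.1 CPM in normal skin and at 60.7 to 103 CPM, median 77.8, in wounds, a log2 difference of 0.49 (SE 0.12, adjusted p = 0.00996). Il1r2, the decoy receptor that binds IL-1 without signalling, moved the other way. It was at 51.4, 83.8 and 62.3 CPM in normal skin and at 10.6 to 46.6 CPM, median 35.7, in wounds, with no overlap and a log2 difference of −1.06 (SE 0.27, adjusted p = 0.0138). Il1rl2, the receptor for the IL-36 ligands, rose by 0.36 (SE 0.12, adjusted p = 0.0336). This call was held in 11 of 20 alternative fits and lost with the replicate block. The shared accessory chain Il1rap differed by −0.05 (SE 0.09, adjusted p = 0.727).

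Of the IL-18 genes, Il18r1 was called and the ligand was not. Il18r1, the binding chain, was at 4.64, 5.89 and 6.24 CPM in normal skin and at 11.9 to 31.9 CPM in 11 wound samples, while acellular 15 mm replicate 1, at 3.97 CPM, was below normal. The log2 difference was 1.61 (SE 0.45, adjusted p = 0.0193). Its partner Il18rap did not pass in all samples (1.49, SE 0.61, adjusted p = 0.0803) but did without that sample (1.62, adjusted p = 0.0112). Il18 itself was at 27.6, 28.5 and 29.5 CPM in normal skin and at 2.78 to 29.1 CPM in wounds (−0.90, SE 0.40, adjusted p = 0.0999), and the inhibitor Il18bp differed by −0.0018 (SE 0.24, adjusted p = 0.997).

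Il1b, the IL-1 ligand made mostly by myeloid cells, was dominated by 1 sample. It was at 1.55, 2.61 and 2.95 CPM in normal skin, and at 4.56, 219 and 17.9 CPM in HDB 10 mm wounds. In the other 9 wound samples it ran from 1.08 to 23.7 CPM. Over all wounds it was not called by edgeR (2.47, SE 1.07, adjusted p = 0.0971) but was by DESeq2 (2.46, adjusted p = 0.0198), and in HDB 10 mm wounds alone it was (5.08, SE 1.31, adjusted p = 0.0313). The 219 CPM came from replicate 2, the sample with the high neutrophil sum, and without it no interleukin gene was called by edgeR in HDB 10 mm skin against normal (1.15% of all genes were), with 20 at an unadjusted p under 0.05, whereas DESeq2 on all samples called 22 (36.7%, against 24.8% of all genes). The receptor antagonist Il1rn, at 22.4 to 33.7 CPM in normal skin and 23.8 to 91.6 CPM in wounds, did not pass (0.61, SE 0.29, adjusted p = 0.130), nor did the alarmins Il33 (0.24, SE 0.39) and Il1a (0.13, SE 0.42).

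Among the genes called over all wounds, Il12b and Il23a, of the IL-12 and IL-23 family, rose most. The ligands are pairs, with the p40 subunit encoded by Il12b shared, p35 (Il12a) completing IL-12 and p19 (Il23a) completing IL-23. Il12b was at 0.281, 0.335 and 0.537 CPM in normal skin, or 4, 5 and 8 counts. It was at 2.68, 5.56 and 2.05 CPM in acellular 10 mm wounds, 1.95, 2.37 and 9.27 in HDB 10 mm, 0.737, 2.22 and 6.21 in acellular 15 mm and 1.94, 3.21 and 3.44 in HDB 15 mm. All 12 wound samples exceeded the highest normal one, and the log2 difference was 3.13 (SE 0.77, adjusted p = 0.0113).

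The subunits that complete the pairs went in opposite directions. Il23a rose by 2.43 (SE 0.81, adjusted p = 0.0388), from 4, 0 and 4 counts in normal skin to between 4 and 47 counts in wounds, with overlap. Il12a was at 1.76, 1.41 and 2.41 CPM in normal skin and at 0.106 to 1.12 CPM in wounds, with no overlap, a log2 difference of −1.88 (SE 0.53, adjusted p = 0.0207). Of their receptors, the shared chain Il12rb1 rose by 0.65 (SE 0.22, adjusted p = 0.0407), Il23r was not called (1.71, SE 0.75, adjusted p = 0.0986), and Il12rb2 differed by −0.16 (SE 0.15, adjusted p = 0.441). Il12rb2 overlaps the neighbouring gene Serbp1 over 3317 bases, and its estimated counts were fractional in all 15 samples. The calls of Il23a and Il12rb1 were held in 10 of 19 and 9 of 20 fits, fewer than that of Il12b, which was held in 18 of 20.

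**Figure D3:**
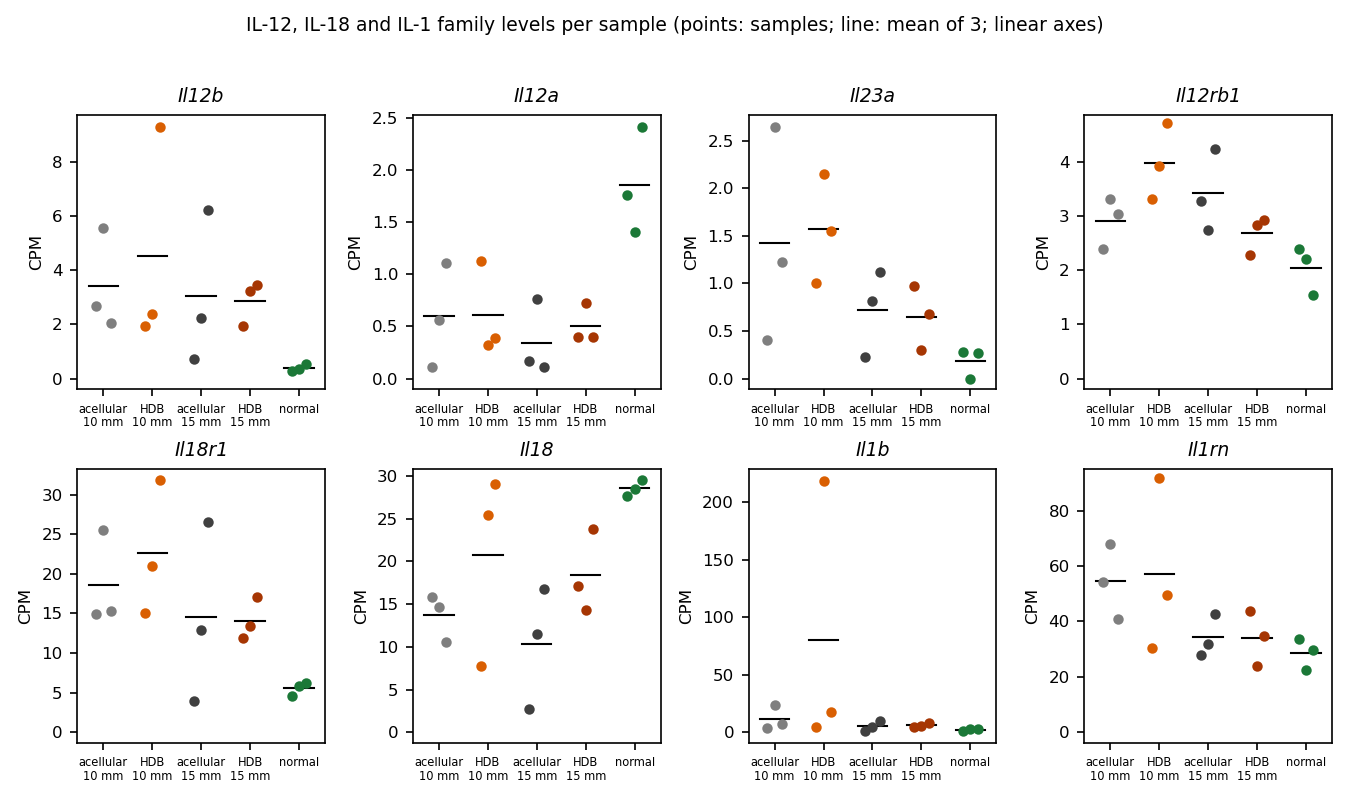
CPM (y axis, linear from 0) in each of the 15 samples is plotted by group (x axis) for 8 genes of the IL-12, IL-18 and IL-1 families; points are samples and lines are means of 3. Il12b is higher and Il12a lower in all 12 wound samples than in the 3 normal ones, and 1 HDB 10 mm sample at 219 CPM sets the Il1b mean.

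As the plot of IL-12, IL-18 and IL-1 family levels shows, the wound samples of 1 group could differ more than the group means did. Of the 4 tested IL-3, IL-5 and IL-13 family genes, edgeR called Il13ra2. Il13ra2, which binds IL-13 with high affinity and is regarded mainly as a decoy, was at 8.01, 5.09 and 6.84 CPM in normal skin and at 10.9 to 36.7 CPM in 11 wound samples. Acellular 15 mm replicate 1 was again lowest, at 4.48 CPM. The log2 difference was 1.49 (SE 0.38, adjusted p = 0.0131). Il13ra1, the signalling partner and the member of this group with the most reads, was not called (0.33, SE 0.22, adjusted p = 0.257), and Il4ra, the chain both IL-4 and IL-13 use, differed by −0.06 (SE 0.24, adjusted p = 0.872).

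Of the 6 tested IL-17 family genes edgeR called Il17rb, a receptor chain for IL-25, over all wounds, and DESeq2 also called Il17re and Il17d. Il17rb was at 2.39, 2.95 and 2.21 CPM in normal skin and at 2.66 to 6.94 CPM in wounds (0.82, SE 0.27, adjusted p = 0.0364). Its call was held in 11 of 20 alternative fits. In acellular 10 mm wounds alone Il17re, the chain for IL-17C, was higher (0.99, SE 0.27, adjusted p = 0.0259) and Il17rd lower (−0.60, SE 0.19, adjusted p = 0.0418), but with a sample left out these calls held in 1 and 0 of 6 fits, and that of Il17rd was also lost with no filter, with the replicate block and without TMM. Il17rc, with the most reads of the family, and Il17ra were not called over all wounds (0.28, SE 0.22 and 0.21, SE 0.14). Il17d, the one tested ligand, was not called by edgeR either (−0.62, SE 0.25, adjusted p = 0.0793).

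Of the 10 tested genes of the common gamma chain family edgeR called none over all wounds, with 1 at an unadjusted p under 0.05 (43.7% of all genes were). DESeq2 called Il2rb (1.19, adjusted p = 0.0443) and Il7 (0.73, adjusted p = 0.0342), while it called 40% of all genes. Il7, a survival factor for T cells, was higher in acellular 10 mm (1.27, SE 0.37, adjusted p = 0.0314) and HDB 10 mm wounds (1.31, SE 0.37, adjusted p = 0.0395). It was at 4.15, 5.89 and 6.10 CPM in normal skin, 12.5, 12.4 and 14.0 CPM in acellular 10 mm wounds and 9.88, 17.4 and 12.7 CPM in HDB 10 mm wounds. Neither single-group call of Il7 was firm, with 0 and 1 of 6 fits holding it when a sample was left out. The receptor chains Il2rb and Il7r had edgeR log2 differences of 1.2 (SE 0.57, adjusted p = 0.122) and 1.01 (SE 0.58, adjusted p = 0.200), which passed without acellular 15 mm replicate 1 (1.33, adjusted p = 0.0189 and 1.14, adjusted p = 0.0324). In that sample 9 T cell genes summed to 11.8 CPM, against 24.3 to 66.1 CPM in the other wound samples and 32.0 to 35.9 CPM in normal skin.

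Of the 7 tested IL-10, IL-20 and IL-22 family genes edgeR called none over all wounds, with 3 at an unadjusted p under 0.05 (43.7% of all genes were). DESeq2 called Il20 (−1.71, adjusted p = 0.0272) and Il22ra2 (−1.13, adjusted p = 0.0273) lower, while it called 40% of all genes. In acellular 15 mm wounds Il20, a keratinocyte cytokine, was at 0, 1 and 5 counts against 32, 35 and 24 in normal skin (−4.14, SE 1.02, adjusted p = 0.0127). Il22ra2, the soluble inhibitor of IL-22, was at 2.32, 7.53 and 12 CPM there against 33.0, 18.1 and 32.9 CPM (−1.94, SE 0.59, adjusted p = 0.0278). Without acellular 15 mm replicate 1 the Il20 call held (−3.59, adjusted p = 0.0352) and that of Il22ra2 did not (−1.52, adjusted p = 0.0662), nor did it without replicate 2 or normal replicate 1 or 3. The Il22ra2 call was also lost with the replicate block and when only the groups compared were fitted. Il20rb, the chain of this family with the most reads, did not pass over all wounds (0.29, SE 0.21, adjusted p = 0.317). Of Il16, Il34 and Il4i1, which belong to no family above, edgeR called none, with 1 at an unadjusted p under 0.05 (43.7% of all genes were). DESeq2 called Il16 lower (−0.90, adjusted p = 0.0276). Il34, a ligand of the CSF-1 receptor made by keratinocytes, was at 29.4, 36.9 and 32.1 CPM in normal skin and at 8.56 to 31.5 CPM in wounds (−0.45, SE 0.26, adjusted p = 0.200).

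Set against normal skin 1 group at a time, 13 members were called in the acellular 10 mm group (21.7%, against 20.3% of all genes), 10 of them higher (9.77% of all genes were) and 3 lower (10.6%). In acellular 15 mm wounds 10 were called (16.7%, against 30.2%), 5 higher (17.6% of all genes) and 5 lower (12.6%). Under HDB beads 10 were called at 10 mm (16.7%, against 12.3%), 9 higher (6.1% of all genes) and 1 lower (6.23%), and 4 at 15 mm (6.67%, against 5.18%), 2 higher (2.67% of all genes) and 2 lower (2.51%). Fitting only the groups compared gave 2 in acellular 15 mm wounds (3.64%, against 6.57% of all genes in that fit) and 22 in HDB 15 mm wounds (39.3%, against 22.9%). DESeq2 gave 18 (30%, against 40.2%) and 10 (16.7%, against 18.6%). These comparisons share the 3 normal samples, and the difference between their counts was not tested. Il6ra (lower) and Il11ra2 (higher) were called in each of the 4. The 4 calls in HDB 15 mm were these, Il11ra1 (1.06, SE 0.20, adjusted p = 0.0213) and Il31ra (−2.18, SE 0.51, adjusted p = 0.0348). In acellular 15 mm wounds, leaving out replicate 1 raised the count to 16 (25.8%, against 23% of all genes) but lost Il22ra2, Il11 (0.95, adjusted p = 0.133), Il11ra1 (0.61, adjusted p = 0.0621) and Il12a (−2.11, adjusted p = 0.103). Left-out samples moved these counts widely, to between 1 and 6 and between 3 and 16 under acellular beads (10 mm, then 15 mm), and to between 0 and 18 and between 0 and 5 under HDB beads. The share of all genes called moved too, from 5.14% to 11.9% and from 14.8% to 37.3% under acellular beads. Under HDB beads it moved from 0.501% to 17.5% and from 0.218% to 8.61%. The counts of 0 arose without HDB 10 mm replicate 2 or 3 or without any 1 of the normal replicates in HDB 10 mm, and without HDB 15 mm replicate 1 or 3 or normal replicate 1 or 3 in HDB 15 mm.

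Markers of other cell types and signalling genes moved in the same comparison, in which 14.2% of all genes were called higher and 16.7% lower. All 5 endothelial genes, 6 of 10 macrophage genes, 3 of 8 mast cell genes and 2 of 7 skeletal muscle genes fell in wounds, and the summed levels in the 12 wound against the 3 normal samples were 82.3 to 340 against 433 to 486 CPM for endothelium, 146 to 1036 against 524 to 1286 CPM for macrophages, 37.3 to 192 against 124 to 254 CPM for mast cells and 622 to 30366 against 42897 to 52444 CPM for skeletal muscle. Some markers went the other way. Over all wounds 5 of 9 hair genes rose. The 9 Langerhans and dendritic cell genes summed to 191 to 386 CPM in wounds against 153 to 166 CPM in normal skin, again with no overlap. However, Epcam, which epithelial cells also express, was the only 1 of the 9 that passed the test. In acellular 10 mm wounds alone Zbtb46 and Cd209a were called lower. None of the genes in these lists was at 0 in all samples. Of 8 gamma delta T cell genes listed, 2 were in the expression table. These summed to 17.1 to 49.9 CPM in wounds against 82.8 to 121 CPM in normal skin. Endothelium, muscle and the gamma delta T cell genes thus ran with Il6ra, Il6st and Il31ra in having no wound sample at a normal level. The part of these cell types in the differences was not tested. Of 21 adaptors and NF-kB genes of the IL-1 and IL-17 pathways 8 rose, among them Nfkbiz (0.88, SE 0.22, adjusted p = 0.0115) and Myd88 (0.41, SE 0.12, adjusted p = 0.0265), and 1, Tollip, fell. Of 16 tested epidermal genes that IL-1, IL-17 and IL-22 are known to induce, 7 rose and none fell, including Krt16 (4.87, SE 1.03, adjusted p = 0.00606) and Krt17 (1.78, SE 0.42, adjusted p = 0.00941). Of 13 tested type 2 genes, 2 rose and 5 fell, among them Retnla (−3.37, SE 0.50, adjusted p = 0.00162), and of 18 JAK, STAT and SOCS genes Socs5 rose and Stat5b fell, while Stat3 did not pass (0.14, SE 0.15, adjusted p = 0.500). Of 9 genes that process interleukins Casp1, which matures IL-1 beta and IL-18 (0.82, SE 0.24, adjusted p = 0.0236), and Adam17 rose. Of 18 partner chains and related ligands without an Il symbol, Cntfr and Clcf1 rose and Tslp and Csf1r fell. Tslp (−0.97, SE 0.25, adjusted p = 0.0130) was also the only gene of these lists called between bead types, being higher in HDB than in acellular 15 mm wounds (1.81, SE 0.34, adjusted p = 0.0250). The call between bead types was lost when only the groups compared were fitted and without HDB 15 mm replicate 1, 2 or 3. In each of these fits no gene at all was called.

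Beads with stem cells were compared with acellular beads within each wound size. At 10 mm none of the 60 interleukin genes was called, and neither was any of the 15369 genes (0%); 4 members had an unadjusted p under 0.05 (3.53% of all genes did), and DESeq2 called 0. At 15 mm none was called against 2.93% of all genes, with 6 at an unadjusted p under 0.05 (23.2% of all genes) and 0 by DESeq2 (14.1% of all genes). Over both sizes none was called (0% of all genes), with 6 at an unadjusted p under 0.05 (15.8%) and 0 by DESeq2 (2.76%). The fitted difference was above 0 for 46 of 60 members over both sizes, with a median of 0.17, against 48.8% of all genes and a median of −0.01. Without acellular 15 mm replicate 1 it was above 0 for 35 of 62, with a median of 0.04. Without acellular 15 mm replicate 1, Il31ra was called lower in HDB 15 mm wounds (−1.57, adjusted p = 0.0379). That is 1.61% of the members against 0.979% of all genes in that fit. Without acellular 15 mm replicate 3, Il1r2 (1.33, adjusted p = 0.0239), Il33 (1.44, adjusted p = 0.0498) and Il34 (0.95, adjusted p = 0.0498) were called higher. In that fit 4.84% of the members were called against 14.9% of all genes.

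Il6ra and Il12b, which separated wounds from normal skin, and Il1rn did not pass the test between bead types. Il6ra differed between HDB and acellular wounds by −0.14 (SE 0.36) at 10 mm and −0.38 (SE 0.36) at 15 mm. Il12b differed by 0.40 (SE 0.72) and −0.09 (SE 0.72). Il1rn differed by 0.07 (SE 0.35) and −0.0055 (SE 0.36). Errors of this size leave room for differences in either direction.

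The members with the smallest unadjusted p at 10 mm were Il23r, Il21r and Il1b on the higher side and Il22ra2, Il20ra and Il1f10 on the lower. Il23r, the specific chain of the IL-23 receptor, had 5, 14 and 15 counts in HDB wounds against 1, 1 and 2 in acellular ones (2.93, SE 0.80, adjusted p = 1.0). The groups did not overlap, but at 15 mm the counts were 5, 11 and 6 against 3, 7 and 14. Il21r, a chain found on lymphocytes, was at 1.24, 2.21 and 3.05 CPM against 0.343, 1.01 and 0.409 CPM (1.87, SE 0.63, adjusted p = 1.0). Il1b differed by 2.79 (SE 1.16), and by −0.02 without HDB 10 mm replicate 2.

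On the lower side, Il22ra2 was at 10.4, 13.7 and 4.72 CPM in HDB 10 mm wounds against 37.2, 27.0 and 13.2 CPM in acellular ones (−1.42, SE 0.58, adjusted p = 1.0). At 15 mm it lay the other way, at 18.3, 8.61 and 19.9 against 2.32, 7.53 and 12 CPM (1.10, SE 0.58, adjusted p = 0.272). The test of the difference between sizes gave 2.52 (SE 0.81, adjusted p = 0.203) in edgeR and was passed in DESeq2 (2.5, adjusted p = 0.0296). No other member passed that test with either tool, while 0% of all genes passed it in edgeR and 5.65% in DESeq2. In edgeR 3 members had an unadjusted p under 0.05 (13.4% of all genes did). Il20ra, which forms receptors for IL-20 and related cytokines, was lower in all 3 HDB 10 mm samples than in the acellular ones (−1.02, SE 0.51), and Il1f10, the gene of IL-38, differed by −1.53 (SE 0.87).

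At 15 mm the members with the smallest unadjusted p were Il17d (0.82, SE 0.33), Il11ra1 (0.47, SE 0.19) and Il3ra (0.66, SE 0.34) on the higher side, and Il12rb2 (−0.52, SE 0.19), Il1r1 (−0.36, SE 0.14) and Il31ra (−1.11, SE 0.49) on the lower. Il1r1 was at 75.8, 74.0 and 75.4 CPM in HDB wounds against 92.9, 103 and 92.1 CPM in acellular ones, with no overlap, and its adjusted p was 0.166. Il11ra1 was at 252, 215 and 314 CPM against 185, 211 and 170 CPM, again with no overlap and an adjusted p of 0.175. Il31ra was at 7.43, 4.49 and 6.89 CPM against 3.29, 20.1 and 17.3 CPM, in which acellular replicate 1 was below all HDB samples. Over both sizes the smallest unadjusted p belonged to Il23r (1.44, SE 0.52), Il21r (1.12, SE 0.44) and Il3ra (0.55, SE 0.24) on the higher side and to Il1f10 (−1.69, SE 0.61), Il31ra (−0.94, SE 0.35) and Il12rb2 (−0.34, SE 0.14) on the lower, with adjusted p from 0.263 to 0.296.

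Several members separated the 3 HDB from the 3 acellular samples without passing the test. At 10 mm all HDB samples were above all acellular samples for Il12rb1, Il1rap, Il21r and Il23r, 4 of 60 members with 4.53% of all genes doing so, and below for Il17re and Il20ra, 2 of 60 with 6.47% of all genes. At 15 mm they were above for Il10rb, Il11ra1, Il17d and Il3ra, 4 of 60 with 8.55% of all genes, and below for Il1r1, 1 of 60 with 11.7%. In the comparison of wounds with normal skin 3 members were higher and 5 lower without overlap, against 9.86% and 11.1% of all genes.

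**Figure D4:**
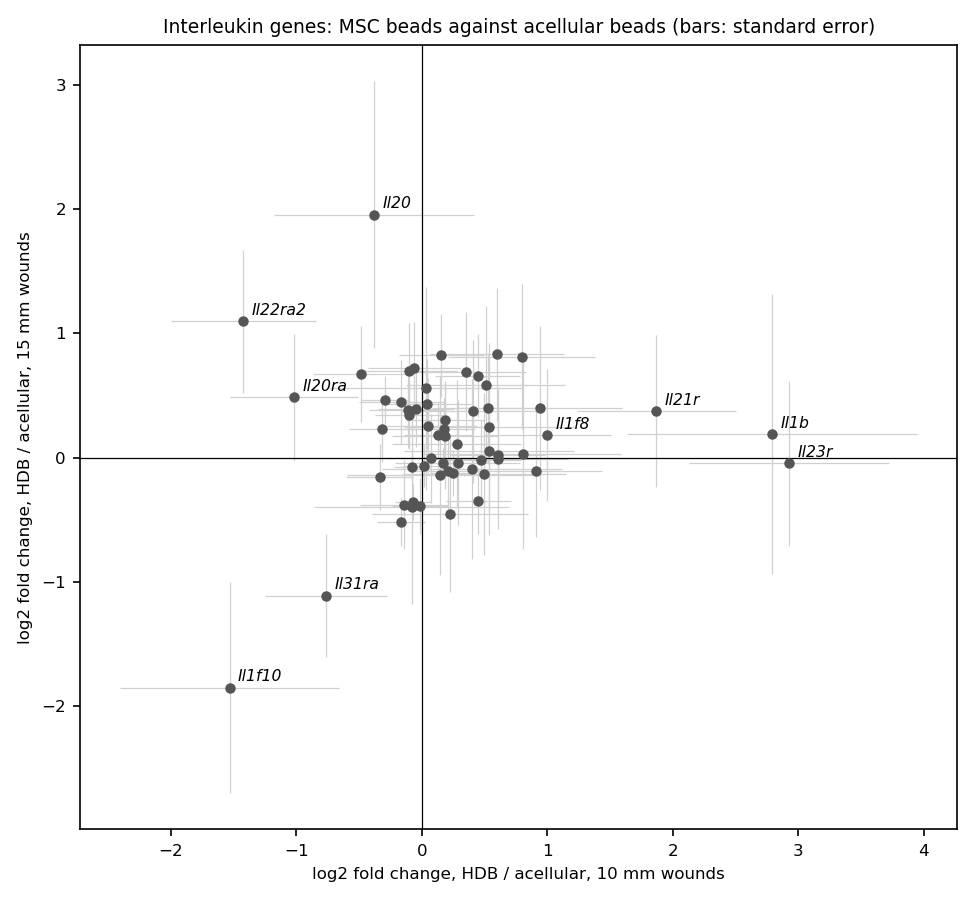
The log2 fold change of HDB against acellular wounds at 10 mm (x axis) and at 15 mm (y axis) is plotted for the 60 tested interleukin genes, with standard errors as bars. No gene passed the test at either size; Il31ra and Il1f10 lie below 0 at both, and Il22ra2 lies below 0 at 10 mm and above 0 at 15 mm.

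The plot of HDB against acellular differences at both sizes places most members within 1 unit of 0. Between 15 mm and 10 mm wounds, averaged over bead types, none of the members was called against 0.397% of all genes, with 16 at an unadjusted p under 0.05 (15.1% of all genes were). DESeq2 called 8 members (13.3%), each lower in 15 mm wounds, and 6.66% of all genes. The lowest p belonged to Il20 (−2.98, SE 0.67, adjusted p = 0.0674), Il7 (−1.08, SE 0.26, adjusted p = 0.0735) and Il1rap (−0.33, SE 0.08, adjusted p = 0.0881). Il20 had 16, 78, 16, 6, 45 and 36 counts in the 10 mm samples and 0, 1, 5, 6, 13 and 4 in the 15 mm samples. Il7 was at 9.88 to 17.4 CPM in the 10 mm samples and at 2.27 to 8.34 CPM in the 15 mm samples, with no overlap. Without acellular 15 mm replicate 1, Il7 alone of the members was called (−0.90, adjusted p = 0.0371), 1.61% against 3.12% of all genes. Without replicate 3 of that group 5 were called (8.06%, against 4.63% of all genes), Il7, Il20, Il1rap, Il13ra2 and Il17rc. Without HDB 10 mm replicate 1, Il20 and Il1f5, the gene of the IL-36 receptor antagonist, were called (3.23%, against 0.604% of all genes).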

How the data were processed

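Whole mouse skin was sequenced from 15 samples. The authors deposited expected counts per gene (estimated counts, not normalized), for which the submitters' processing notes name HISAT2 2.0.4, Bowtie2 2.2.5, RSEM 1.2.12 and build GRCm38.p6; strand use is not given in the sources used here. Here the counts were rounded and filtered with filterByExpr, scaled by TMM and fitted as 5 group means in edgeR 4.0.16 (R 4.3.3) with quasi-likelihood tests, two-sided, Benjamini-Hochberg adjusted over 15369 genes at 0.05. The standard error is the log2 fold change over the square root of F. The alternatives were DESeq2 1.42.0, other filters, total counts without TMM (chosen after seeing the data), a replicate block, fits on only the groups compared and each sample left out. The members, lists and motifs were chosen with earlier results of these data known. Named are the called members with the largest changes, up to 10 in each direction, the 3 with the smallest p in each direction where none was called, the member of most reads in each family, and Il12b. Same-numbered samples deviated together at 15 mm between HDB and acellular (correlations 0.397, 0.167 and 0.183). This was taken as pairing there and nowhere else, although the labels state no pairing. Single same-numbered correlations in other pairs of groups reached 0.489. The main test used no pairing. The fit was tested on simulated data with 200 changed genes. Of changes of 1 log2 unit it recovered 43% for wounds against normal skin and 27.5% for HDB against acellular at 10 mm. Of changes of 2 log2 units it recovered 86% and 71%. Human reads from the beads that match mouse genes were not separated here. No 2 samples of a group agreed within sampling noise.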

Additional observations from a re-analysis of the deposited data

How the results depend on the processing

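Counts of interleukin genes called moved with the tool more than with the filters. For the acellular groups, and likewise the HDB groups, the 10 mm value comes first. DESeq2 called 25 over all wounds against normal skin (41.7%, against 40% of all genes). It called 20 and 18 for acellular (33.3% and 30%, against 32.9% and 40.2%). For HDB it called 22 and 10 (36.7% and 16.7%, against 24.8% and 18.6%). In the test of the difference between sizes it called 1 (1.67%, against 5.65%), and between sizes 8 (13.3%, against 6.66%). Fitting only the groups compared gave 24 and 2 for acellular (43.6% and 3.64%, against 42% and 6.57% of all genes). It gave 19 and 22 for HDB (33.3% and 39.3%, against 20.2% and 22.9%) and does not apply over all wounds. Total counts without TMM gave 16 for acellular at 15 mm (26.7%, against 38.9% of all genes) and 16 and 7 for HDB (26.7% and 11.7%, against 21.3% and 13.6%). They moved the median of all genes over all wounds from 0.04 to 0.22. With samples left out the counts ran from 3 to 29 over all wounds, 1 to 6 and 3 to 16 for acellular, 0 to 18 and 0 to 5 for HDB, 0 to 3 for HDB against acellular at 15 mm and 0 to 5 between sizes. In these fits the share of all genes called ran from 11.9% to 40.1% over all wounds. For acellular it ran from 5.14% to 11.9% and 14.8% to 37.3%, and for HDB from 0.501% to 17.5% and 0.218% to 8.61%. It ran from 0% to 14.9% for HDB against acellular at 15 mm and from 0% to 4.63% between sizes. The causes were not tested.

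With the replicate number as a block the counts were 14 over all wounds (23.3%, against 27.3% of all genes) and 8 and 7 for acellular (13.3% and 11.7%, against 16% and 25.3%). For HDB they were 6 and 1 (10% and 1.67%, against 7.72% and 1.54%). In these comparisons the samples share only a number. For HDB against acellular at 15 mm the count was 0 (1.16% of all genes), as it was without the block. Pairing there was inferred from the correlations alone and is not stated in the labels. The block changed no other count.

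Of 1512 pairs of a named gene and an alternative, 1229 kept direction and call, 254 lost and 12 gained the call, and 17 changed sign, of which all but that of Il1b had small values in the full data. Over all wounds Il4ra was 0.02 without acellular 15 mm replicate 1, 0.10 without normal replicate 2 (−0.17 to 0.10 over all samples left out) and 0.13 without TMM, and Il12rb2 was 0.020 without TMM. For HDB against acellular at 10 mm Il1b was −0.025 without HDB 10 mm replicate 2 (range to 3.86). Over both sizes, without acellular 15 mm replicate 1, Il17rc was −0.011 (range to 0.30), Il4ra −0.023 (to 0.24), Il1rn −0.028, Il34 −0.035 (to 0.40) and Il12b −0.078. Also over both sizes Il20rb was 0.015, 0.11 and 0.031 without acellular 10 mm replicate 1, acellular 15 mm replicate 3 and HDB 15 mm replicate 2 (range from −0.19), Il1rn was −0.050, −0.22 and −0.075 without acellular 10 mm replicate 3, HDB 10 mm replicate 2 and HDB 15 mm replicate 1 (to 0.19), and Il12b was −0.38 without HDB 10 mm replicate 3 (to 0.68). Genes with few counts, such as Il23a, Il23r and Il11, are limited by depth.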
